A study of Mus musculus with 10 samples.

Results

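The genes described here encode 3 families that cut the extracellular matrix or hold that cutting back: the matrix metalloproteinases (MMPs), the ADAMTS proteases and the tissue inhibitors of metalloproteinases (TIMPs). They were chosen by name, as the probe sets paired with 1 gene symbol made of Mmp, Timp or Adamts, a number and at most the letter a or b. Of 21789 probe sets with 1 symbol, 68 met this rule. They belonged to 44 of the 19938 genes measured: 22 Mmp, 4 Timp and 18 Adamts genes. Every one of the 44 was tested, without a filter on low values. Mmp15 and Adamts2 were not analysed here.

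RNA came from 10 melanoma tumour samples of male mice. In the exercise group were 5 tumours, on arrays numbered 300, 301, 306, 309 and 310, and in the non-exercise group 5, on arrays 326, 327, 329, 330 and 331. The series title calls the exercise voluntary. The labels do not give the age or strain of the mice, the melanoma line or the running schedule. Values are log2 levels of 1 probe set per gene after quantile normalization, and a change is the exercise mean minus the non-exercise mean, with its standard error (SE) after ±. Because probes differ in how well they bind, a level is compared only with the same gene on other arrays. The labels do not state that each array came from its own animal, so the p-values cover only the spread between these arrays. In tumour RNA of many cell types, a change in the number of cells of a type cannot be told apart from a change in RNA per cell.

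Matrix metalloproteinases are zinc enzymes made as inactive precursors whose propeptide must be removed before they cut. By substrate they are grouped into collagenases, gelatinases, stromelysins, elastase and matrilysin, with a further group held in the membrane. ADAMTS proteases share the zinc centre but carry thrombospondin repeats that anchor them to matrix, and they cut proteoglycans, procollagens or von Willebrand factor. TIMPs block the active site of MMPs, and TIMP3 also blocks ADAM and ADAMTS proteases. In tumours much of this set is made by fibroblasts, macrophages and neutrophils as well as by the cancer cells.

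Of the mouse MMP genes, 10 lie side by side on chromosome 9 with no other protein-coding gene between them in the RefSeq annotation GRCm38.p6. Many MMP genes are known to be switched on by AP-1, the Fos and Jun transcription factors, through the motif TGAGTCA near the start of transcription. The stretches of 100 bases before the annotated start are shown for the cluster genes with this motif and for Mmp8 without it, because the changes described next differed among these neighbours. Sequences are from RefSeq, build GRCm38.p6, read 5′ to 3′ along the gene, and capitals mark the motif or its reverse complement TGACTCA. Position -1 is the last base before the start. The stretches are chr9:7272414-7272513 on the plus strand for Mmp13, chr9:7347274-7347373 on the plus strand for Mmp12, chr9:7388027-7388126 on the minus strand for Mmp1b, chr9:7445722-7445821 on the plus strand for Mmp3, chr9:7464041-7464140 on the plus strand for Mmp1a, chr9:7502242-7502341 on the plus strand for Mmp10, chr9:7558329-7558428 on the plus strand for Mmp8 and chr9:7691990-7692089 on the plus strand for Mmp7.
Mmp13: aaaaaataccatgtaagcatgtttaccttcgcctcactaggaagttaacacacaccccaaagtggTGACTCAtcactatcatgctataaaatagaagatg
Mmp12: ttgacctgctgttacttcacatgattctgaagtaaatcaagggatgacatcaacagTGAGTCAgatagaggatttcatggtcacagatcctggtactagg
Mmp1b: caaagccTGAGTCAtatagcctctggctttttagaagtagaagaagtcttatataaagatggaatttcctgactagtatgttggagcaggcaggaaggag
Mmp3: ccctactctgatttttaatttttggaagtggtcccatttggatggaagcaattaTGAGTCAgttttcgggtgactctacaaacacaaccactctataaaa
Mmp1a: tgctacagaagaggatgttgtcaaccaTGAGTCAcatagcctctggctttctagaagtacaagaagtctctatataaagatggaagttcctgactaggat
Mmp10: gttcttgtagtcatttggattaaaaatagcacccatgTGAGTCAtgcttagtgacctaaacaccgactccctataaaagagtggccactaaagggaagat
Mmp8: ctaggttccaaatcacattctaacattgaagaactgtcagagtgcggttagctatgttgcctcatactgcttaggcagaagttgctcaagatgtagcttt
Mmp7: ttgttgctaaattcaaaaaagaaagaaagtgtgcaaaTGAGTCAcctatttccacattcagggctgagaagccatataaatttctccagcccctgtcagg

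The motif was searched on both strands in the window from 250 bases before to 50 after each start. Of the 44 genes, 30 were listed in the promoter table; the unlisted ones are Adamts10, Adamts15, Adamts16, Adamts19, Adamts4, Adamts5, Adamts6, Adamts7, Adamts8, Mmp16, Mmp17, Mmp19, Mmp2 and Mmp9. A match was found for 7 of the 30, which are Mmp13, Mmp12, Mmp1b, Mmp3, Mmp1a, Mmp10 and Mmp7, and all 7 lie in the cluster on chromosome 9. No match was found for Mmp8, Mmp27 and Mmp20 of that cluster, nor for the 4 Timp genes or the 9 listed Adamts genes. For comparison, 5.95% of all 27025 genes in the table had a match. The first base of the motif lay at -35 in Mmp13, -44 in Mmp12, -93 in Mmp1b, -46 in Mmp3, -73 in Mmp1a and -63 in both Mmp10 and Mmp7. Mmp12 and Mmp7 each had a second listed start without a match. A match describes the letters and does not show that a factor was bound.

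The 3 families held 13 genes that were higher in the exercise tumours and none that was lower. The changes ran up to 2.31-fold for Mmp19. Of the 44 genes 13 rose, or 29.5%, and 0 fell at a limma adjusted p under 0.05, while 6.35% of all 19938 genes rose and 10.6% fell. By family, 8 of 22 Mmp genes rose, 2 of 4 Timp genes and 3 of 18 Adamts genes. The median change was 0.16 for the Mmp genes, 0.23 for the Timp genes and 0.04 for the Adamts genes, beside -0.02 over all genes. No Timp gene lay near its family median, with Timp1 at 0.54, Timp3 at 0.46, and Timp2 and Timp4 both at -0.01. The groups were fully apart, with exercise higher, for 6 of the 44 genes, against 3.74% of all genes, and with exercise lower for 0, against 8.33%. At an unadjusted p under 0.05, 18 of the 44 were higher and 1, Adamts8, was lower. Of all 19938 genes, 2241 were higher and 3581 lower at that threshold. Whether the families differ from each other was not tested. The count of 13 was 7 without non-exercise array 326 or without 330. The share of all genes that rose was also lower in both settings, at 4.3% against 6.35%. The count of 8 Mmp genes was 5 without array 300, 326 or 330. That of 2 Timp genes was 1 without array 310, 326, 329 or 330, and that of 3 Adamts genes was 1 without array 309, 310, 326 or 330. Without any 1 of these arrays, 4.3% to 5.91% of all genes rose, so fewer genes passed outside these families too. After centring the arrays on their medians 4.7% of all genes were higher and 15.4% lower, and 12 of the 44 genes were higher and 0 lower.

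**Figure D1:**
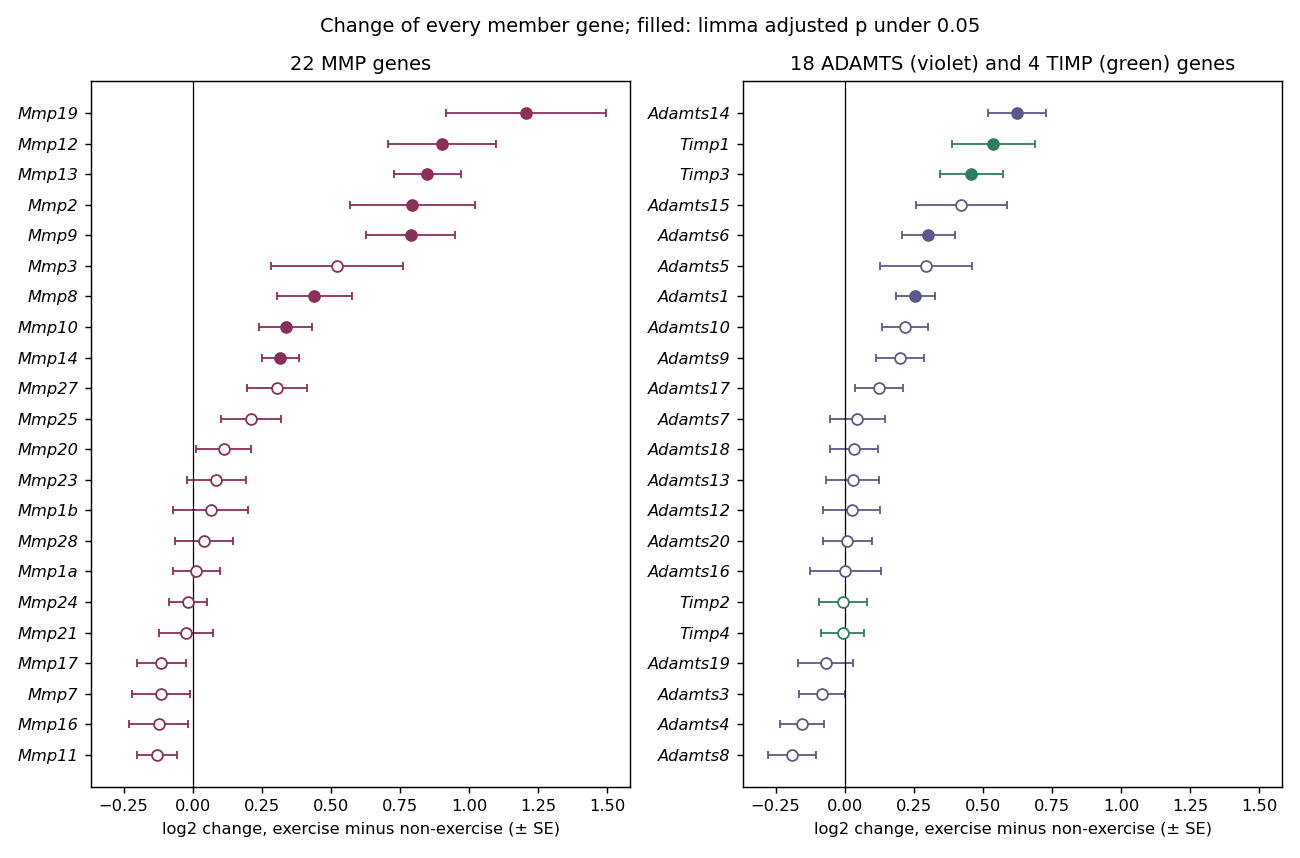
Log2 change, exercise minus non-exercise, of the 22 Mmp genes (left) and the 18 Adamts and 4 Timp genes (right), with bars of 1 SE and filled points for a limma adjusted p under 0.05. The 13 filled points all lie to the right of 0, from Adamts1 at 0.25 to Mmp19 at 1.21, and the 12 genes to the left of 0 are all open.

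The collagenases cut the triple helix of fibrillar collagen, and Mmp13, collagenase-3, is the main one in mice. In the array order given above, Mmp13 lay at 9.40, 9.04, 9.36, 9.38 and 9.33 in exercise tumours and at 8.68, 8.57, 8.59, 7.98 and 8.43 in non-exercise tumours. The groups did not overlap, and array 330 was the lowest of the 10. Mmp13 rose by 0.85 ± 0.12 (1.80-fold, limma adjusted p = 0.000519), the smallest adjusted p of the 44 genes. Mmp8, the collagenase stored in neutrophil granules, lay at 7.65, 7.57, 7.14, 7.43 and 7.64 in exercise and 7.10, 7.39, 7.14, 6.63 and 6.97 in non-exercise arrays. The groups overlapped, with exercise array 306 at the level of non-exercise array 329. Mmp8 rose by 0.44 ± 0.14 (limma adjusted p = 0.0395), and did not pass without array 300, 301, 309, 310, 326, 329, 330 or 331 (0.34 to 0.46, adjusted p up to 0.0922) or with array weights (0.38, adjusted p = 0.0520). It was among the dimmer genes, with a mean level at percentile 10.7 of all genes. Mmp1a and Mmp1b, near copies of each other that match the human interstitial collagenase, had changes of 0.01 ± 0.08 and 0.07 ± 0.14 and did not pass (limma adjusted p = 0.955 and 0.833). Their mean levels lay at percentiles 6.91 and 1.19, and how far their probe sets read each other was not tested.

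Both gelatinases, which cut denatured collagen and the type IV collagen of basement membranes, rose. Mmp2, gelatinase A, lay at 10.90, 10.60, 10.12, 10.99 and 11.72 in exercise tumours and 9.75, 10.42, 10.17, 9.77 and 10.25 in non-exercise tumours. Array 310 was far above the rest and array 306 lay inside the non-exercise range. The change was 0.80 ± 0.23 (1.74-fold, limma adjusted p = 0.0262), and it did not pass without array 300, 309, 326 or 330 (0.72 to 0.79, adjusted p up to 0.0713) or with robust variances (adjusted p = 0.106). Mmp9, gelatinase B, lay at 8.33, 9.18, 8.31, 8.43 and 8.62 in exercise against 7.64, 7.90, 7.91, 7.44 and 8.05 in non-exercise arrays. Every exercise array was above every non-exercise array, and array 301 was the highest. Mmp9 rose by 0.79 ± 0.16 (1.73-fold, limma adjusted p = 0.00463) and passed with each array left out in turn.

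Among the stromelysins and the related elastase the response was uneven. Mmp12, the elastase of macrophages, lay at 11.42, 10.57, 10.37, 10.74 and 11.05 in exercise and 10.04, 9.75, 10.22, 9.35 and 10.26 in non-exercise tumours. The groups did not overlap, and the gap between array 306 and non-exercise array 331 was small. It rose by 0.90 ± 0.19 (1.87-fold, limma adjusted p = 0.00632). Mmp10, stromelysin-2, lay at 8.87, 8.70, 8.59, 8.58 and 8.61 in exercise against 8.11, 8.40, 8.56, 8.30 and 8.29 in non-exercise arrays, again without overlap but with exercise arrays 306, 309 and 310 just above non-exercise array 329. Its change was 0.34 ± 0.09 (limma adjusted p = 0.0255), and it did not pass without array 300, 326 or 330 (0.28 to 0.33, adjusted p up to 0.0755). Mmp3, stromelysin-1, which also activates other MMP precursors, lay at 8.67, 7.95, 8.10, 8.43 and 9.12 in exercise against 7.41, 8.37, 8.34, 7.36 and 8.18 in non-exercise arrays. Arrays 326 and 330 were far below the other 3 non-exercise arrays, which overlapped the exercise group. The change of 0.52 ± 0.24 did not pass (limma adjusted p = 0.164). Mmp11, stromelysin-3, had a change of -0.13 ± 0.07 and Mmp7, matrilysin, of -0.11 ± 0.11, neither of which passed (limma adjusted p = 0.256 and 0.556).

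Of the 5 membrane-type MMPs measured, 1 rose. Mmp14, which cuts collagen at the cell surface and activates the precursor of MMP2, lay at 11.69, 11.43, 11.43, 11.52 and 11.57 in exercise and 11.17, 11.37, 11.15, 11.09 and 11.26 in non-exercise tumours. The groups did not overlap, with exercise arrays 301 and 306 just above non-exercise array 327. The rise was small but even, 0.32 ± 0.07 (1.25-fold, limma adjusted p = 0.00514). Mmp16, Mmp17, Mmp24 and Mmp25 had changes from -0.12 to 0.21 and did not pass. Mmp19, a secreted MMP that cuts basement membrane proteins, lay at 9.26, 9.41, 8.63, 9.34 and 10.71 in exercise against 8.08, 8.65, 8.47, 7.74 and 8.37 in non-exercise arrays. Array 310 stood far above the other exercise arrays, and array 306 lay just below the highest non-exercise array. Mmp19 had the largest change of the 44 genes, 1.21 ± 0.29 (2.31-fold, limma adjusted p = 0.0111), which did not pass with robust variances (adjusted p = 0.0622). Without array 310 the change was 0.90 and passed. Mmp20, Mmp21, Mmp23, Mmp27 and Mmp28 did not pass, and of these Mmp27 came nearest, at 0.30 ± 0.11 (limma adjusted p = 0.0717).

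**Figure D2:**
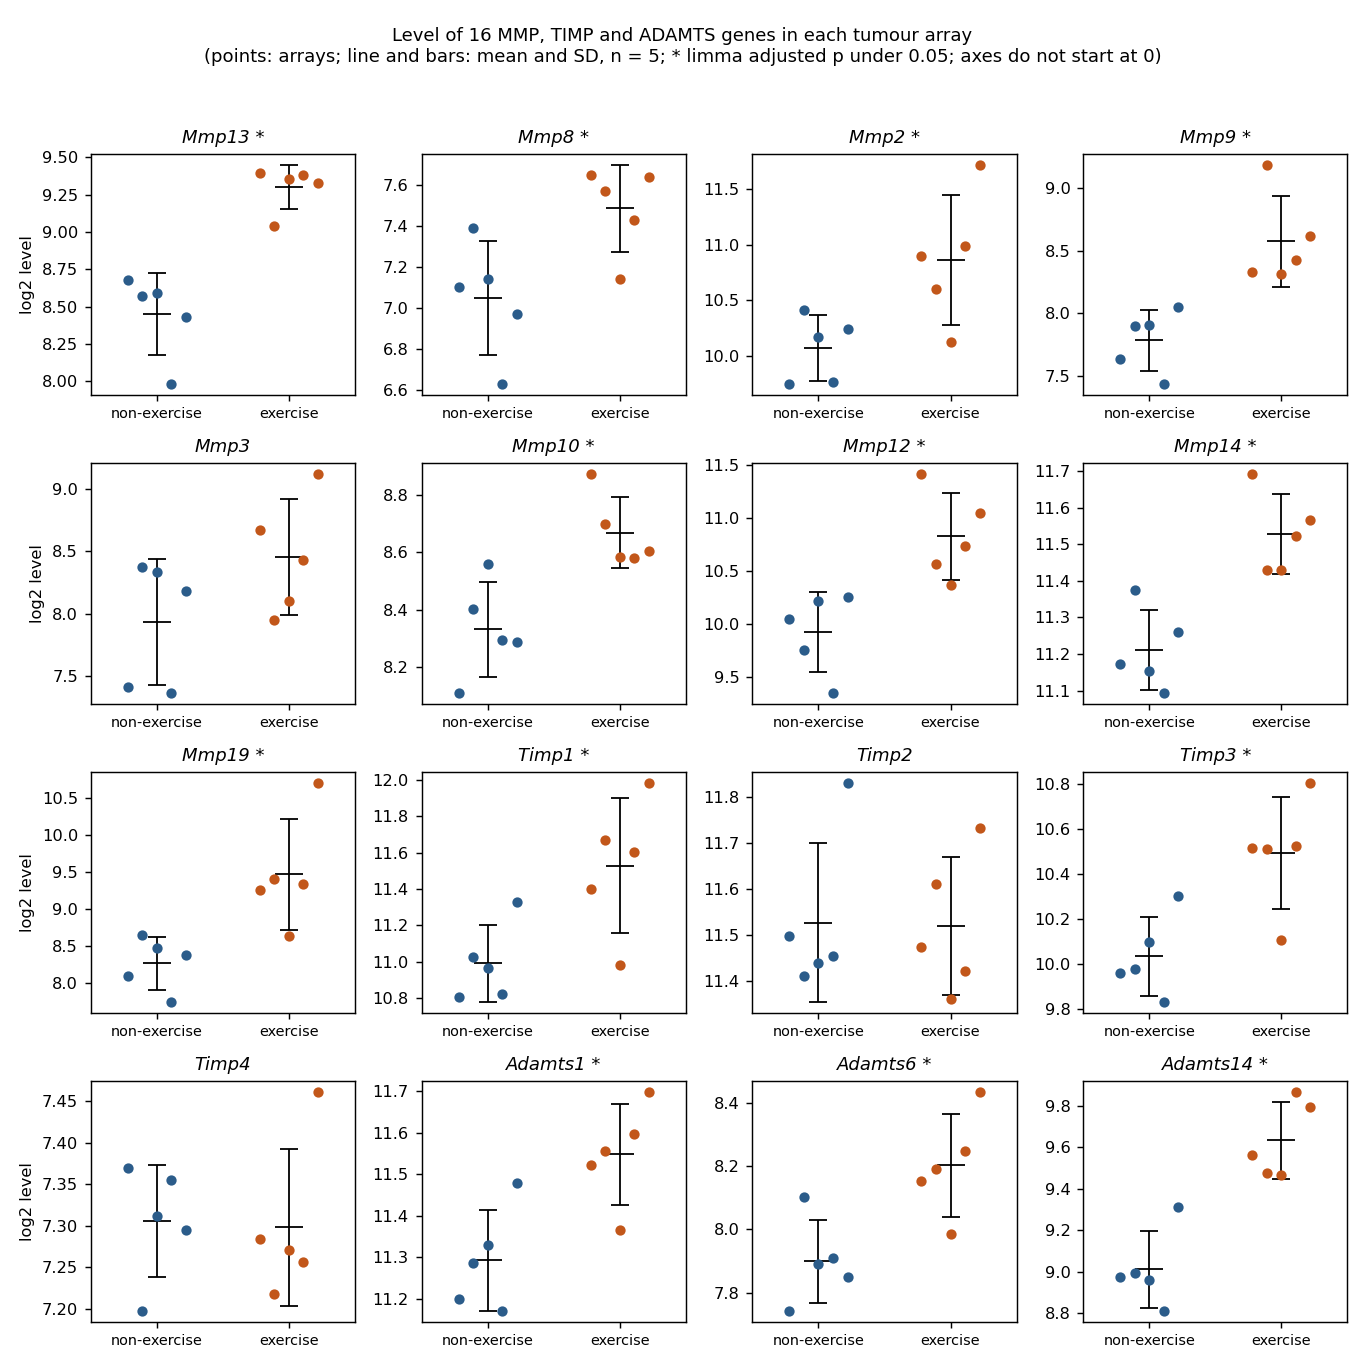
Log2 level in each of the 10 arrays for the 13 genes that rose (marked *) and for Mmp3, Timp2 and Timp4, with 1 point per array and the mean and SD of each group (n = 5). The groups are fully apart for Mmp13, Mmp9, Mmp10, Mmp12, Mmp14 and Adamts14, and overlap for the other 10 genes shown.

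Along the cluster on chromosome 9, 4 of the 10 neighbours rose: Mmp13, Mmp12, Mmp10 and Mmp8. In gene order the changes were 0.85 for Mmp13, 0.90 for Mmp12, 0.07 for Mmp1b, 0.52 for Mmp3, 0.01 for Mmp1a, 0.34 for Mmp10, 0.44 for Mmp8, 0.30 for Mmp27, 0.11 for Mmp20 and -0.11 for Mmp7. Genes that rose and genes that did not pass were thus interspersed along the cluster. Several that did not pass were dim. Their mean levels lay at percentile 1.19 for Mmp1b, 6.91 for Mmp1a, 7.88 for Mmp27 and 15.0 for Mmp7. Mmp20 and Mmp3 lay at 23.1 and 30.7. Those that rose lay at 10.7 for Mmp8, 38.3 for Mmp10, 46.6 for Mmp13 and 74.7 for Mmp12. For a dim gene, not passing does not show that it did not change. Of the 7 with the AP-1 motif 3 rose, and of the 3 without it 1 did, Mmp8. Genes that rose were thus found with and without these letters in the window. No test was made on these few genes.

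**Figure D3:**
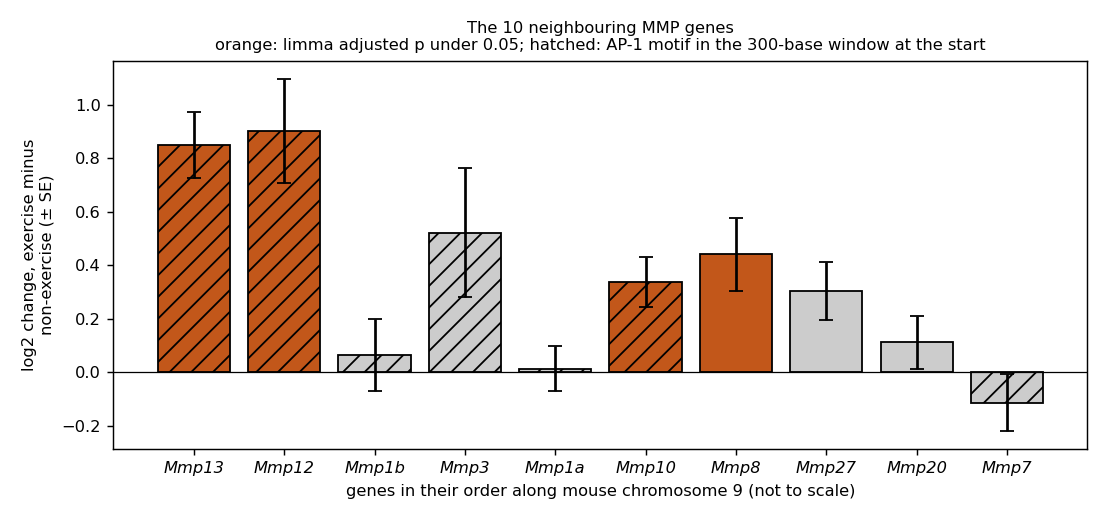
Log2 change, exercise minus non-exercise, with bars of 1 SE for the 10 neighbouring MMP genes in their order along chromosome 9. Orange bars (Mmp13, Mmp12, Mmp10 and Mmp8) passed a limma adjusted p of 0.05. Hatching marks the 7 genes with an AP-1 motif in the promoter window, 4 of which did not pass. Mmp1b, Mmp1a, Mmp27, Mmp8 and Mmp7 were dim, with mean levels at percentiles 1.19 to 15.0 of all genes.

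The inhibitors divided into 2 that rose and 2 that did not pass. Timp1, which binds the precursor of MMP9 and inhibits most secreted MMPs, lay at 11.40, 11.67, 10.98, 11.61 and 11.98 in exercise and 10.81, 11.03, 10.97, 10.82 and 11.33 in non-exercise tumours. Array 306 lay inside the non-exercise range and the other 4 exercise arrays above it. The change was 0.54 ± 0.15 (1.45-fold, limma adjusted p = 0.0237), and it did not pass without array 310, 326, 329 or 330 (0.42 to 0.53, adjusted p up to 0.0643) or with robust variances (adjusted p = 0.0864). Timp3, which stays bound to matrix and inhibits ADAM and ADAMTS proteases as well, lay at 10.51, 10.51, 10.11, 10.52 and 10.80 in exercise against 9.96, 9.98, 10.09, 9.83 and 10.30 in non-exercise arrays. Here too array 306 alone of the exercise arrays lay inside the non-exercise range. Timp3 rose by 0.46 ± 0.11 (1.37-fold, limma adjusted p = 0.0137) and passed with each array left out in turn.

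Timp2, which with MMP14 forms the complex that activates MMP2, lay at 11.47, 11.61, 11.36, 11.42 and 11.73 in exercise and 11.50, 11.41, 11.44, 11.46 and 11.83 in non-exercise tumours. The groups overlapped throughout and the highest array was 331, of the non-exercise group. The change was -0.01 ± 0.09 (limma adjusted p = 0.978). Timp4, at percentile 11.2 of mean level, lay between 7.22 and 7.46 in exercise and between 7.20 and 7.37 in non-exercise tumours. Its change was -0.01 ± 0.08 (limma adjusted p = 0.973). The sign of both values moved with the setting, so no direction is given for either gene.

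To set proteases against the inhibitors they bind, the log2 level of the inhibitor was subtracted from that of the protease within each array for 5 pairs. The offset of such a value depends on the probes, so only its shift between groups is read. The p-values are two-sided, from all 252 assignments of 10 arrays, and adjusted over the 5 pairs. Mmp2 minus Timp2 was -0.57, -1.01, -1.24, -0.43 and -0.02 in the exercise arrays and -1.75, -1.0, -1.27, -1.69 and -1.58 in the non-exercise arrays. The exercise arrays were higher on average, with 3 of 5 above all non-exercise arrays, and the shift was 0.80 (exact permutation p = 0.0238, adjusted p = 0.0529). Mmp14 minus Timp2 shifted by 0.32 (exact permutation p = 0.0317, adjusted p = 0.0529), also with 3 of 5 exercise arrays above the rest. Adamts4 minus Timp3 shifted the other way, by -0.61 (exact permutation p = 0.0159, adjusted p = 0.0529), with 4 of 5 exercise arrays below all non-exercise arrays. Mmp9 minus Timp1 differed by 0.25 (exact permutation p = 0.230, adjusted p = 0.288) and Adamts5 minus Timp3 by -0.16 (exact permutation p = 0.294, adjusted p = 0.294). None of the 5 passed after adjustment, and 3 had an unadjusted p under 0.05. Without array 327 the first 3 shifts were 0.92, 0.39 and -0.57, each with an adjusted p of 0.0397. None of the 3 passed when any other single array was left out. Their adjusted p then rose to as much as 0.0992, 0.106 and 0.0992.

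**Figure D4:**
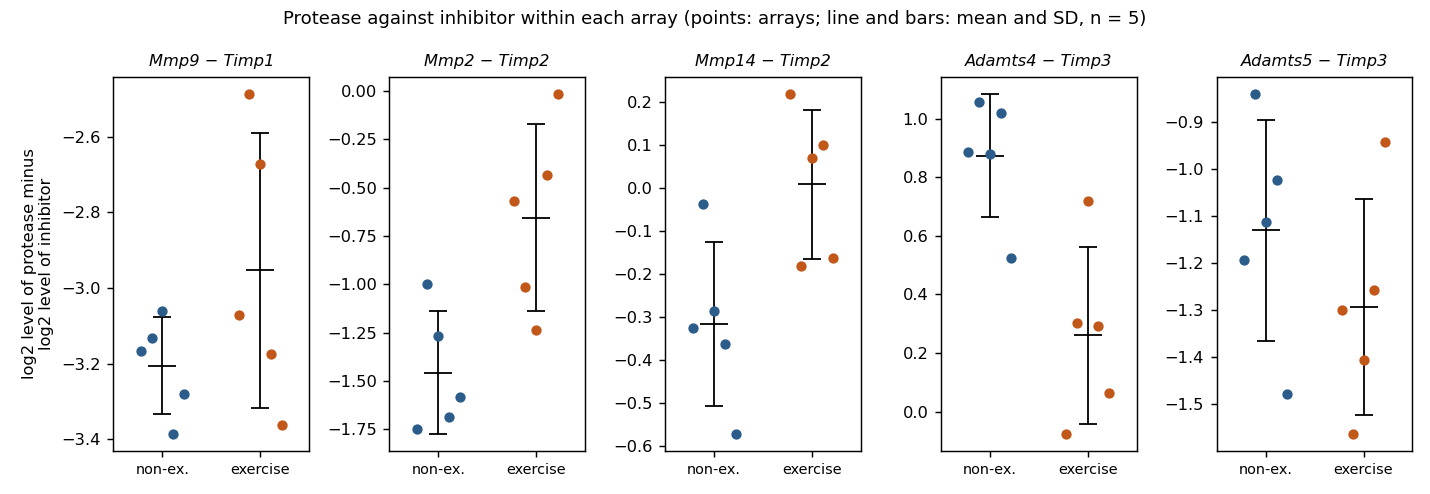
Log2 level of the protease minus that of the inhibitor in each array for 5 pairs, 1 point per array, with the mean and SD of each group (n = 5). The exercise mean is higher by 0.80 for Mmp2 minus Timp2 and by 0.32 for Mmp14 minus Timp2 and lower for Adamts4 minus Timp3 (-0.61), and the points of the groups overlap in every pair.

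Of the 18 ADAMTS genes 3 rose, by 0.25 to 0.62. Adamts14, which removes the N-terminal propeptide of fibrillar procollagens, lay at 9.56, 9.48, 9.47, 9.87 and 9.79 in exercise and 8.98, 9.0, 8.96, 8.81 and 9.31 in non-exercise tumours. The groups did not overlap and array 331 was the highest of the non-exercise arrays. Adamts14 rose by 0.62 ± 0.11 (1.54-fold, limma adjusted p = 0.00139) and passed with each array left out in turn. Adamts1, which cuts the proteoglycans versican and aggrecan, lay at 11.52, 11.56, 11.37, 11.60 and 11.70 in exercise against 11.20, 11.29, 11.33, 11.17 and 11.48 in non-exercise arrays, with arrays 306 and 331 in the overlap. Its change of 0.25 ± 0.07 (limma adjusted p = 0.0238) did not pass without array 309, 310, 326, 327 or 330 (0.22 to 0.25, adjusted p up to 0.0683) or with median centring (0.16, adjusted p = 0.142). Adamts6, a less studied member, lay at 8.15, 8.19, 7.98, 8.25 and 8.43 in exercise against 7.74, 8.10, 7.89, 7.91 and 7.85 in non-exercise arrays, with 306 in the non-exercise range. Its change of 0.30 ± 0.10 (limma adjusted p = 0.0462) did not pass without array 300, 301, 309, 310, 326, 329, 330 or 331 (0.25 to 0.32, adjusted p up to 0.123).

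The main aggrecan-cutting enzymes did not pass. Adamts4 lay at 10.44, 10.81, 10.83, 10.82 and 10.87 in exercise and 10.85, 11.03, 10.97, 10.85 and 10.83 in non-exercise tumours, and array 300 was the lowest. Its change was -0.15 ± 0.08 (limma adjusted p = 0.230), or -0.08 without array 300, -0.24 with median centring and -0.28 without arrays 306, 309 and 310 (adjusted p = 0.478, 0.0886 and 0.0805). Adamts5 lay at 9.21, 8.95, 8.70, 9.26 and 9.86 in exercise against 8.77, 9.14, 8.98, 8.81 and 8.82 in non-exercise arrays, with array 310 the highest and array 306 the lowest of the 10. Its change was 0.30 ± 0.17 (limma adjusted p = 0.270), or 0.13 without array 310 and 0.18 without arrays 306, 309 and 310 (adjusted p = 0.544 and 0.396). The single Adamts gene lower at an unadjusted p under 0.05 was Adamts8 (limma adjusted p = 0.165). The other proteoglycan-cutting members Adamts8, Adamts9, Adamts15 and Adamts20 ranged from -0.19 for Adamts8 to 0.42 for Adamts15, the latter with array 310 at 8.73 where the other 4 exercise arrays lay between 7.58 and 8.0. Adamts7 and Adamts12, which cut the cartilage protein COMP, had changes of 0.05 and 0.02, and Adamts13, which cuts von Willebrand factor, of 0.03. Adamts3, like Adamts14 a procollagen propeptidase, had a change of -0.08. In all 15 Adamts genes did not pass, 11 with a positive and 4 with a negative change.

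For 3 Adamts genes several probe sets could be compared. All 6 of Adamts9 had a positive change, from 0.20 to 0.44 with a median of 0.27, and none passed when every probe set was tested on its own. The probe set used for the gene had the smallest of these changes. The 16 of Adamts3 ran from -0.16 to 0.15 and the 5 of Adamts17 from -0.11 to 0.14, both with members on each side of 0. The remaining 41 genes had 1 probe set each.

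The same few arrays were often the highest or the lowest across the genes that rose. Among the exercise arrays, 306 was the lowest for 11 of the 13 genes, while 310 was the highest for 6 and 300 for 5. Among the non-exercise arrays, 330 was the lowest for 9 of the 13, and 331 was the highest for 6 and 327 for 5. How often these arrays were the highest or lowest over all genes was not counted. Relative to the mean of 10 arrays the median of the 13 genes was 0.45 in array 310 and -0.06 in array 306, and ran from -0.51 in array 330 to -0.13 in array 331. Over the 44 genes the median SD within a group was 0.178 in the exercise and 0.155 in the non-exercise arrays, beside 0.138 and 0.117 over all genes.

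**Figure D5:**
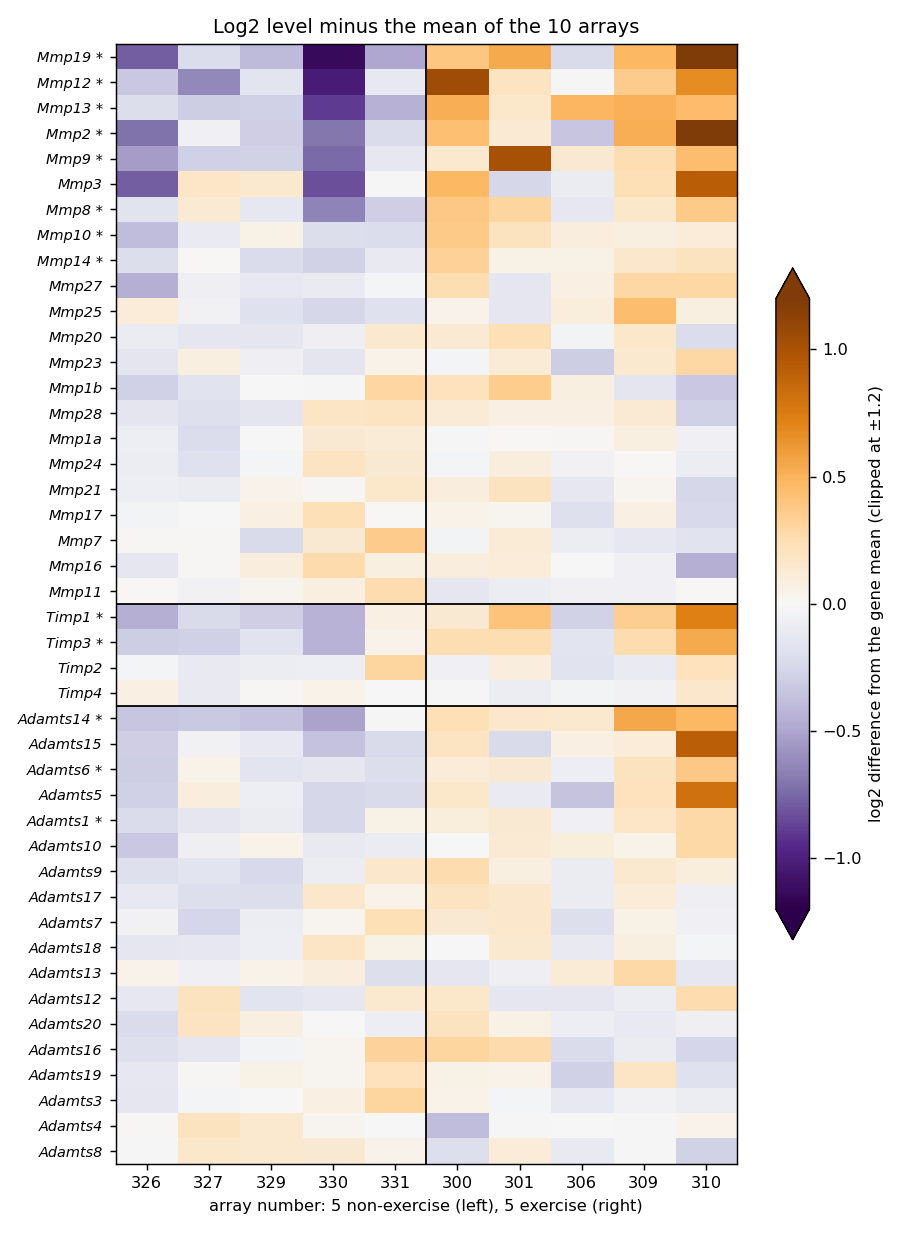
Log2 level of each of the 44 genes in each array minus that gene's mean over the 10 arrays, with the Mmp genes on top, the Timp genes in the middle and the Adamts genes below, sorted by change; * marks a limma adjusted p under 0.05. The upper rows of each family are pale or violet in the 5 non-exercise arrays and mostly orange in the exercise arrays, with array 310 the deepest orange in many rows and array 306 the palest of the exercise arrays.

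Markers of macrophages and fibroblasts, cells known to make these proteases, were also higher in the exercise tumours. Marker counts with all 10 arrays, here and in the next paragraph, stand beside 6.35% of all genes that rose and 10.6% that fell. Those at an unadjusted p under 0.05 stand instead beside 2241 of all 19938 genes higher and 3581 lower. Of 10 macrophage markers 8 rose and 0 fell, with a median change of 0.86, and their mean log2 level ran from 9.68 to 10.86 in the exercise and 9.15 to 9.68 in the non-exercise arrays. Itgam, the gene of CD11b, rose by 1.43 ± 0.23 (limma adjusted p = 0.00114) and Msr1, a scavenger receptor, by 1.17 ± 0.20 (limma adjusted p = 0.00173). Of 10 fibroblast markers 4 rose and 0 fell, with a median change of 0.61 and mean levels of 9.40 to 10.61 and 9.03 to 9.69. Pdgfra, a growth factor receptor of fibroblasts, rose by 0.79 ± 0.22 (limma adjusted p = 0.0261) and Thy1, a surface glycoprotein, by 0.57 ± 0.17 (limma adjusted p = 0.0341); the others were Col14a1 and Pdpn. The mean difference of the macrophage markers from their 10-array means was 0.94 in array 310, 0.82 in 309, 0.51 in 300, 0.08 in 306, -0.24 in 301 and -0.77 in 330. For the fibroblast markers it was 0.94, 0.52, 0.37, -0.27, -0.03 and -0.64 in the same arrays. Array 310 was thus the highest for both lists and array 330 the lowest. The fibroblast count was unsteady: 0 without array 326 or 330, 1 without 300, 309, 310 or 329, 2 without 331, 7 without 306 and 8 without 301. With all arrays, 9 of the 10 were higher at an unadjusted p under 0.05. The part of either cell type in the protease changes was not tested.

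Neutrophil markers, of interest for Mmp8 and Mmp9, were dim: 1 of 10 rose and 0 fell, with a median change of 0.07. That one was Csf3r, the receptor of granulocyte colony-stimulating factor, at 0.72 ± 0.14 (limma adjusted p = 0.00271), and the mean difference of the list was highest in array 301, at 0.31, the array in which Mmp9 was highest. In array 300, where Mmp8 was highest, it was -0.02. Ltf, lactoferrin, and Elane, neutrophil elastase, had changes of -0.55 and -0.17 and did not pass (limma adjusted p = 0.0562 and 0.164). Neutrophil markers higher numbered 2 without array 306, and 1 was lower without array 310, 326 or 330. The 10 melanocytic genes were bright in both groups, with mean levels of 12.62 to 12.80 and 12.66 to 12.82, and 0 of 10 passed in limma, with 2 lower at an unadjusted p under 0.05. The number lower was 2 with median centring, with array weights or at an adjusted p of 0.10, and 1 in the deposited table, with dim genes left out, or without array 306 or 310. It was also 1 without arrays 306, 309 and 310, for Sox10, a melanocyte lineage factor (-0.22, adjusted p = 0.0264). None of 10 endothelial, 10 keratinocyte and 10 skeletal muscle markers passed (1, 0 and 0 at an unadjusted p under 0.05), and 1 of 9 adipocyte markers rose, Retn, resistin. Endothelial markers higher numbered 2 without array 301 and 1 without 306, and the adipocyte count was 0 without array 300, 309, 310, 326, 327, 330 or 331. Hepatocyte transcripts were high in exercise arrays 306, 309 and 310, where the mean of 9 markers lay above its 10-array mean by 1.92, 1.95 and 1.21, and was below it in the other 7. Of these 9 markers 2 rose, Cps1 and Apoc3, or 9 without array 300 or 301 and 0 without any other array. Without exercise arrays 306, 309 and 310, which left 2 exercise arrays against 5, 11 of the 13 genes passed. Adamts1 and Adamts6, at 0.25 and 0.27, did not (limma adjusted p = 0.0631 and 0.158). In this setting 3.74% of all genes were higher and 8.06% lower. It leaves out array 306, the lowest exercise array for 11 of the 13 genes. The changes of Mmp12, Mmp13, Mmp19, Mmp9, Mmp2, Timp1 and Timp3 were then 1.07, 0.77, 1.07, 0.97, 0.68, 0.54 and 0.48. Macrophage markers higher then numbered 5, fibroblast markers 3 and neutrophil markers 3, which were Csf3r, Cxcr2 (1.03, adjusted p = 0.0192) and S100a8 (0.42, adjusted p = 0.0459).

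Some other genes that start, place or stop these proteases also changed, where 6.35% of all genes rose and 10.6% fell. Of 23 activators, receptors and further inhibitors 7 rose, 2 fell and 14 did not pass, with a median change of 0.21. Plau, the urokinase that makes plasmin, an activator of MMP precursors, rose by 0.75 ± 0.14 (limma adjusted p = 0.00237), and Plat, the tissue-type plasminogen activator, by 0.65 ± 0.15 (limma adjusted p = 0.00970). Lrp1, the receptor that takes up MMP and inhibitor complexes, rose by 0.75 ± 0.14 (limma adjusted p = 0.00239). Adam8, a membrane metalloprotease of leukocytes, rose by 1.27 ± 0.18 (limma adjusted p = 0.000557), while Adam12, a metalloprotease of mesenchymal cells, fell by 0.43 (limma adjusted p = 0.00143). The other that fell was Cd63, a tetraspanin that binds TIMP1 (-0.20). Plat did not pass without exercise arrays 306, 309 and 310 (0.42, adjusted p = 0.0850). Of 7 ADAMTS-like proteins, which lack the protease domain, 0 rose and 1 fell: Papln, papilin, changed by -0.38 ± 0.10 (limma adjusted p = 0.0195) and did not pass without array 326, 327 or 329 (-0.36 to -0.35, adjusted p up to 0.0555) or without the 3 arrays with hepatocyte transcripts (-0.34, adjusted p = 0.108).

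Of 20 matrix genes that include substrates of these enzymes, 8 rose and 0 fell, beside 6.35% and 10.6% of all genes. Their median change was 0.36. The count was again 8 without the 3 arrays with hepatocyte transcripts, where 3.74% of all genes rose. Col1a1 and Col1a2, the chains of type I collagen, rose by 0.99 ± 0.22 (limma adjusted p = 0.00791) and 1.04 ± 0.21 (limma adjusted p = 0.00436). Fn1, fibronectin, rose by 0.61 ± 0.14 (limma adjusted p = 0.00751) and Nid1, a basement membrane glycoprotein, by 0.53 ± 0.11 (limma adjusted p = 0.00527). Vwf, the substrate of ADAMTS13, rose by 0.55 ± 0.09 (limma adjusted p = 0.000994). With robust variances 4 of the 20 rose, and Col1a1 did not pass (adjusted p = 0.0511). The mean difference of the substrate list from its 10-array mean was 0.44 in array 310, 0.36 in 300 and -0.18 in 306.

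Among 19 genes tied to the control of MMP transcription, 6 rose and 3 fell, beside 6.35% and 10.6% of all genes. The number that rose was 3 without array 310, 327 or 330. Il1b, the cytokine interleukin-1 beta, rose by 0.97 ± 0.21 (limma adjusted p = 0.00571), Junb, a subunit of AP-1, by 0.52 ± 0.10 (limma adjusted p = 0.00292), and Nfkbiz, a nuclear modulator of NF-kB, by 0.54 ± 0.08 (limma adjusted p = 0.000789). Rela, an NF-kB subunit, fell by 0.45 (limma adjusted p = 0.000157), and Tgfb1, transforming growth factor beta, fell by 0.52 (limma adjusted p = 0.000973). The third that fell was Etv5, an ETS factor (-0.30). For Rela, Tgfb1 and Ets1, the last of which did not pass, every exercise array lay below every non-exercise array, as for 8.33% of all genes. For Nfkbiz every exercise array lay above, as for 3.74% of all genes. Whether any of these bears on the proteases was not tested.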

How the data were processed

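Tumour RNA, isolated with either of a pair of RNeasy kits (which tumours had which is not given), was labelled with biotin by Affymetrix kits, per the labels' protocols, for 10 arrays and summarised with PLIER, per the submitters' processing notes, version not given in the sources used here. Each deposited column holds 1 value per probe set, taken as log2 from its range of 4.66 to 14.55; the log base and any step between arrays are not given. Medians of the deposited log2 columns differed by 0.126, so quantile normalization was applied to them (limma 3.58.1, R 4.3.3). Of 35556 probe sets, 21789 had 1 symbol in the platform table, named through Entrez identifiers, of which 21698 matched GRCm38.p6 and 0 symbols changed. The probe set with the highest mean stood for a gene. The limma test (lmFit, then eBayes with its trend option) was two-sided, with Benjamini-Hochberg adjustment over 19938 genes. Arrays were grouped by their titles, and all 10 table columns were used. Pairs of arrays correlated at 0.967 to 0.995 and none had identical values. Precision is limited by the number of arrays. The code was tested on simulated data.

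The members and gene lists were chosen with earlier results of these data known. Genes described in full are all members past the threshold, 13 fixed members, and up to 5 genes in each pathway list and 2 in a cell type list, those with the smallest p. Of the listed genes Serpine2, Nfkb1, Serpina1a and Cfd were not analysed here. Alternatives were no normalization beyond that deposited, centring on array medians, leaving out dim genes (below the 25th percentile or the median), averaged probe sets, each probe set tested alone, no eBayes trend, robust variances, array weights, a threshold of 0.10, and leaving out each array or arrays 306, 309 and 310. Figures were drawn with matplotlib 3.10.9.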

Additional observations from a re-analysis of the deposited data

Results flagged for a closer look

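In 46 sets of 5 arrays (both groups of 18 genes and of the 5 protease and inhibitor pairs), 1 array stood apart from the other 4 in 4 sets by Dixon's ratio, where chance gives about 1 in 20, or 2.3 sets. Mmp13 was 9.04 in exercise array 301 and 9.33 to 9.40 in the other exercise arrays, all above the non-exercise arrays. Timp2 was 11.83 in non-exercise array 331 and 11.41 to 11.50 in the other 4. Timp4 was 7.46 in exercise array 310 and 7.22 to 7.28 in the other 4. Adamts4 was 10.44 in exercise array 300 and 10.81 to 10.87 in the other 4.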

How the results depend on the processing

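No member gene fell under any alternative run for the 44 genes. The member genes higher numbered 7, and the Mmp genes 3, when genes under the median level were left out, a setting that tests 19 of the 44. The Timp count was 1 with robust variances. The Adamts count was 5 at an adjusted p of 0.10 and 1 without exercise arrays 306, 309 and 310, where 746 of all genes were higher. Leaving out 1 array gave 7 to 13 member genes, 5 to 8 Mmp genes, 1 to 2 Timp genes and 1 to 3 Adamts genes. In the same runs 4.3% to 7.66% of all genes were higher, against 6.35% with all arrays. The shift of Mmp2 minus Timp2 was 0.64 to 0.95, of Mmp14 minus Timp2 0.26 to 0.39 of Adamts4 minus Timp3 -0.73 to -0.53, of Mmp9 minus Timp1 0.14 to 0.35 and of Adamts5 minus Timp3 -0.25 to -0.09. With exercise arrays 306, 309 and 310 left out, 2 against 5 arrays allow no permutation p under 0.0476, so those p-values say nothing on stability. Timp2 turned positive with array weights (0.0232) and without arrays 306, 309 and 310 (0.0157), and Timp4 in the deposited table (0.0511). Leaving out 1 array they ran from -0.0598 to 0.0688 and from -0.0484 to 0.0124. The cause was not tested. No paired analysis was made because the labels give no pairing of the arrays. Dim genes such as Mmp8 limit what the arrays can show.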

Other observations

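For several members that did not pass, exercise array 310 was the highest of the 10 arrays. These were Adamts5, Adamts15, Mmp3, Adamts10, Adamts12, Mmp23 and Timp4. Adamts5 lay at 9.86 there and between 8.70 and 9.26 in the other exercise arrays, and Adamts15 at 8.73 against 7.58 to 8.0. Mmp3 lay at 9.12 there against 7.95 to 8.67. In the same array Mmp16 was at its lowest, 9.16, where the other exercise arrays lay between 9.56 and 9.72. Array 310 was also the lowest of the 10 for Mmp1b, Mmp17, Mmp20, Mmp21, Mmp28, Adamts8 and Adamts16. The adipocyte markers averaged 1.17 above their 10-array mean in array 310 and lay between -0.72 and 0.42 in the other exercise arrays. How often array 310 was the highest or lowest over all genes was not counted, so this is not shown to be particular to these members. Whether these values are related was not tested.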
